A study of Mus musculus with 6 samples.

Results

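Abundant plasma carrier proteins of the liver were followed through 10 genes, Alb, Ttr, Trf, Rbp4, Ahsg, Ambp, Gc, Hpx, Itih1 and Fetub. The members were taken as every probe set of the array that GEO's platform annotation pairs with exactly 1 gene symbol on that list. The rule found 11 probe sets of 45037, and they stand for 8 genes of 18193. Ttr had 4 of them, and Alb, Rbp4, Ahsg, Ambp, Hpx, Itih1 and Fetub had 1 each. The 1 probe set that names Trf also names Srprb, the neighbouring gene, and no probe set used here names Gc, so both genes were not analysed here.

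Liver RNA was measured on 1 Affymetrix 3' array per mouse in 6 mice of the inbred strain BALB/cCrSlc, all male and aged 17 weeks. The 3 mice of the 6C+4CP diet ate 6% casein with 4% collagen peptide, a hydrolysate made from fish, and the 3 mice of the 10C diet ate 10% casein. Both were low-protein diets on the AIN-93M base, eaten for 10 weeks and followed by 3 h without food, so the controls were on restricted protein too. The 3 mice were picked from 12 per diet for medium food efficiency, and the lower casein and the added peptide cannot be told apart.

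Hepatocytes make most plasma proteins and send them through the secretory pathway into the blood. Albumin carries fatty acids and holds water in the circulation, and the other members carry thyroid hormone, retinol, iron, heme, vitamin D metabolites or mineral, or form protease inhibitors. Several of them (Alb, Ttr, Rbp4, Trf and Ahsg) are known as negative acute phase proteins, whose synthesis falls in inflammation, and albumin and transthyretin are used as clinical measures of protein nutrition.

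Promoters were matched by symbol for 8 of the 10 genes in RefSeq's table (build GRCm38.p6), and 3 of them are printed here: that of Alb, which had the highest member value, and those of Ahsg and Fetub, which lie next to each other on chromosome 16 and encode the paired fetuins. Each runs from 250 bases before to 50 bases after the start site. Capitals mark GTTAAT (a half-site of the hepatocyte factor HNF1), CCAAT (the CCAAT box) and TATAAA (the TATA box), searched on both strands, so ATTGG is CCAAT on the other strand. No capitalised motif shares a base with another one.
Alb promoter, chr5:90460620-90460919, plus strand: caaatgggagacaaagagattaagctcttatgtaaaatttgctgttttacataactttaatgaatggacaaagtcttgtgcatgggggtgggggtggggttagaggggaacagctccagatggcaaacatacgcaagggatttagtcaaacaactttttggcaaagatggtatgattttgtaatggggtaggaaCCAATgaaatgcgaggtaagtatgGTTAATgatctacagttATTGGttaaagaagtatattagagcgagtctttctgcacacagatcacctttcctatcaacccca
Ahsg promoter, chr16:22891765-22892064, plus strand: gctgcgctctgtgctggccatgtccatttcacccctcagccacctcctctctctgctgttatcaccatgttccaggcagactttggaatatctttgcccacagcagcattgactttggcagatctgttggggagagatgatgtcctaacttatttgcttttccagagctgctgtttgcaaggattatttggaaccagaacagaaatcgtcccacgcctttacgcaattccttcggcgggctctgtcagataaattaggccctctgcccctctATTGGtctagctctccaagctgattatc
Fetub promoter, chr16:22918132-22918431, plus strand: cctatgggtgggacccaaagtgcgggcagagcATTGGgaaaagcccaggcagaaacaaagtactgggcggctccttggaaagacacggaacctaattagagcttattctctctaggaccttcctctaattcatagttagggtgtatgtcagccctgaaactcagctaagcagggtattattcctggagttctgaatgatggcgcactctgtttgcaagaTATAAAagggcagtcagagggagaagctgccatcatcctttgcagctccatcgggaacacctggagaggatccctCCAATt
The Alb promoter held GTTAAT at -32 and CCAAT at -56 and, on the other strand, at -15. Ahsg held 1 CCAAT, on the other strand at 23 bases after the start. Fetub held TATAAA at -31 and CCAAT at 45 and, on the other strand, at -218. Of all 32851 promoters listed by RefSeq, 7.1% held GTTAAT, 37.4% held CCAAT and 13.6% held TATAAA. Over the promoters matched for the members, 7 of the 8 genes had CCAAT in at least 1 and 3 of the 8 had GTTAAT, where some genes have more than 1 promoter. Ttr is not in these counts, since its chromosome was left out. A match is a description of the letters only.

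Most members lay near the top of the measured scale, while Itih1 and Fetub lay well below it. The highest value in the table was 14.476 on every array, and the values are read as log2, with the base not given in the sources used here. Alb averaged 14.234 over the 6 arrays, the second highest mean of 45037 probe sets and 0.24 below that top. The 4 Ttr probe sets ranked 6, 14, 15 and 18, with means from 13.583 to 13.893, and Rbp4 ranked 26 with 13.425. Hpx ranked 41 (13.222), Ahsg 68 (12.908) and Ambp 92 (12.704). Itih1 (10.964, rank 622) and Fetub (10.052, rank 1313) lay 3.51 and 4.42 below the top, and 2.91% of all probe sets were brighter than Fetub. These ranks place a probe set on the scale and do not order the genes' transcript amounts, since probes differ in brightness.

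Alb, Ambp and Itih1 each held 1 value shared by all 6 mice. Alb, the main plasma protein, read 14.234 in the 3 mice fed 6C+4CP and 14.234 in the 3 fed 10C. Ambp, the precursor of alpha-1-microglobulin and of bikunin, read 12.704 in every mouse of both diets, and Itih1, a heavy chain joined to bikunin in inter-alpha-trypsin inhibitor, read 10.964 in every mouse of both. The 8 other probe sets varied, in the sense of ranging over more than 0.01 across the 6 arrays. The narrowest range inside that limit was 0.061, of a Ttr probe set, and the widest outside it was 1.9e-07, of Ambp. Of all 45037 probe sets 7791 varied, or 17.3%, and of those with a mean of 13 or more 75.4% did (46 of 61). A shared value does not show whether the gene's level differed between the mice, so the diets cannot be compared for these 3 genes.

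**Figure D1:**
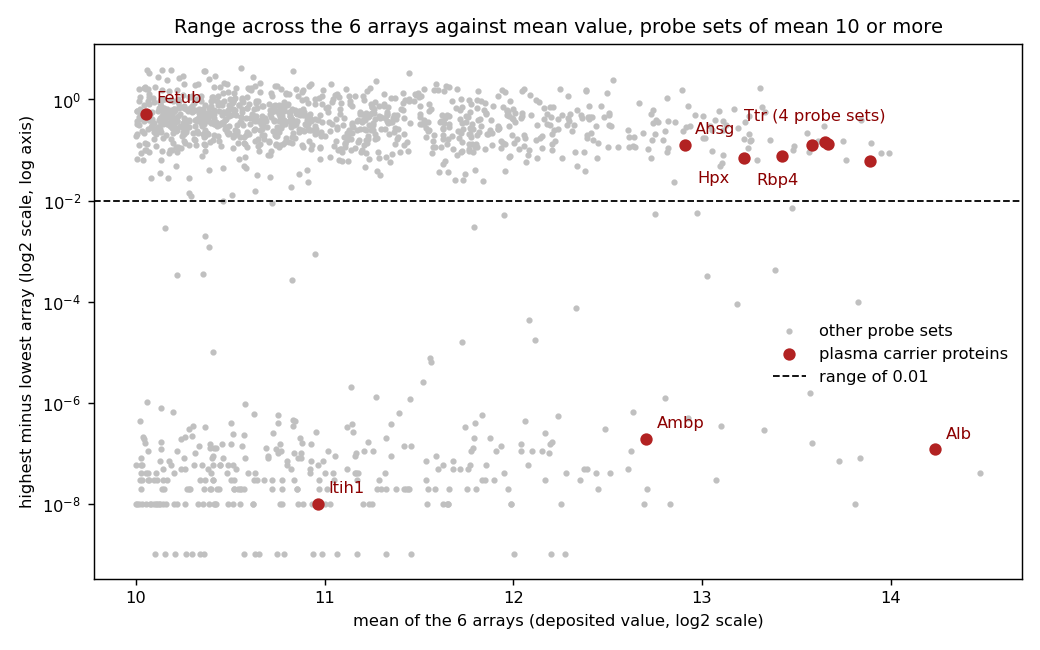
Highest minus lowest array (log2 scale, on a log axis) against the mean of the 6 arrays (log2 scale) for every probe set with a mean of 10 or more, with ranges of 0 drawn in the lowest row of points. The 11 carrier probe sets are in red, Alb, Ambp and Itih1 lie far under the dashed line at 0.01, and the 8 others lie above it between 0.061 and 0.52.

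The differences between the diets in the 8 varying probe sets were small. None of the 8 passed limma over all 45037 probe sets (0 called at an adjusted p under 0.05, with 1, Ahsg, at an unadjusted p under 0.05), where 0.242% of all probe sets passed. Only 6 of those 109 calls were varying probe sets. A fit to the 7791 varying probe sets alone called 0 members, with 0 at an unadjusted p under 0.05, and 0% of those probe sets. Of the 8, 4 had a higher and 4 a lower mean in 6C+4CP, with a median difference of -0.00037 (all varying probe sets: -0.0040, 52.1% lower). Their differences ran from -0.14 to 0.063, or from 0.907 to 1.04 times. Standard errors here are those of the fit over all probe sets, in which they ran from 0.012 to 0.13 over the 8, against 0.031 to 0.12 in the fit to varying ones.

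Transthyretin, Ttr, which carries thyroid hormone and binds the retinol carrier, was read by 4 probe sets, called sets 1 to 4 here from the brightest to the dimmest mean. Set 1 read 13.927, 13.903 and 13.896 in the 6C+4CP mice, against 13.892, 13.873 and 13.866 in the 10C mice. All 3 mice of 6C+4CP lay above all 3 of 10C, and it was the 1 member higher without overlap (10.8% of all varying probe sets were). The difference was 0.032 (SE 0.012, 95% interval -0.0011 to 0.064), or 1.02 times, and did not pass (limma, adjusted p = 0.704). In the fit to varying probe sets its SE was 0.031.

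The other Ttr probe sets overlapped between the diets. Set 2 averaged 13.697 ± 0.033 in 6C+4CP and 13.643 ± 0.044 in 10C (SD, n = 3 each), a difference of 0.054 (SE 0.031). With set 3 the values were 13.721, 13.643 and 13.687 in 6C+4CP, against 13.632, 13.655 and 13.575 in 10C, a difference of 0.063 (SE 0.032). Set 4 averaged 13.583 ± 0.050 in 6C+4CP and 13.583 ± 0.060 in 10C, a difference of 0.00038 (SE 0.044) that turned negative with quantile normalization and with median centring. Of the probe sets of this 1 transcript 3 had higher means in 6C+4CP by 0.032 to 0.063, and whether the 4 differ in this was not tested. The identifiers of sets 1 and 2 end in _x_at and that of set 3 in _s_at, which mark probes that may bind other transcripts too. The 95% intervals of the 4 probe sets reached no lower than 0.920 and no higher than 1.11 times.

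Rbp4, which carries retinol from the liver in a complex with transthyretin, read 13.388, 13.465 and 13.420 in 6C+4CP, against 13.399, 13.456 and 13.421 in 10C. Both diets spanned nearly the same range. The difference was -0.0011 (SE 0.027), the 95% interval ran from 0.949 to 1.05 times, and the sign turned to 0.046 with quantile normalization.

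Ahsg encodes fetuin-A, a plasma protein that binds calcium phosphate and keeps mineral from depositing in tissue. It read 12.853, 12.903 and 12.857 in the 6C+4CP mice, against 12.933, 12.923 and 12.980 in the 10C mice. Every 6C+4CP value lay under every 10C value, as in 9.11% of all varying probe sets, and no other member was lower without overlap. The difference was -0.074 (SE 0.023), or 0.950 times with a 95% interval of 0.909 to 0.993. With quantile normalization it was -0.035 (95% interval -0.11 to 0.042). It did not pass over all probe sets (limma, adjusted p = 0.697) or among varying ones (0.422), where the interval in log2 was -0.16 to 0.016.

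Fetub, the second fetuin, inhibits the egg protease ovastacin in mice. It read 9.802, 10.102 and 10.040 in 6C+4CP, against 10.052, 9.994 and 10.319 in 10C. The diets overlapped, with the lowest mouse in 6C+4CP and the highest in 10C. The difference of -0.14 (SE 0.13) was the widest of the members in size and had the widest interval, from 0.705 to 1.17 times. It came down to -0.042 without 10C replicate 3 and to -0.051 without 6C+4CP replicate 1. Fetub was also the member farthest below the top of the scale, with a spread between mice of 0.16 in 6C+4CP and 0.17 in 10C, against 0.014 to 0.060 for the 7 others.

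Hpx, hemopexin, binds free heme and takes it to the liver, and is a positive acute phase protein in rodents. It read 13.237, 13.221 and 13.189 in 6C+4CP, against 13.224, 13.204 and 13.259 in 10C. The 3 mice of 6C+4CP lay within the spread of the 10C mice or just beneath it. The difference was -0.013 (SE 0.021), with an interval from 0.952 to 1.03 times, and its sign turned to 0.037 with quantile normalization.

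**Figure D2:**
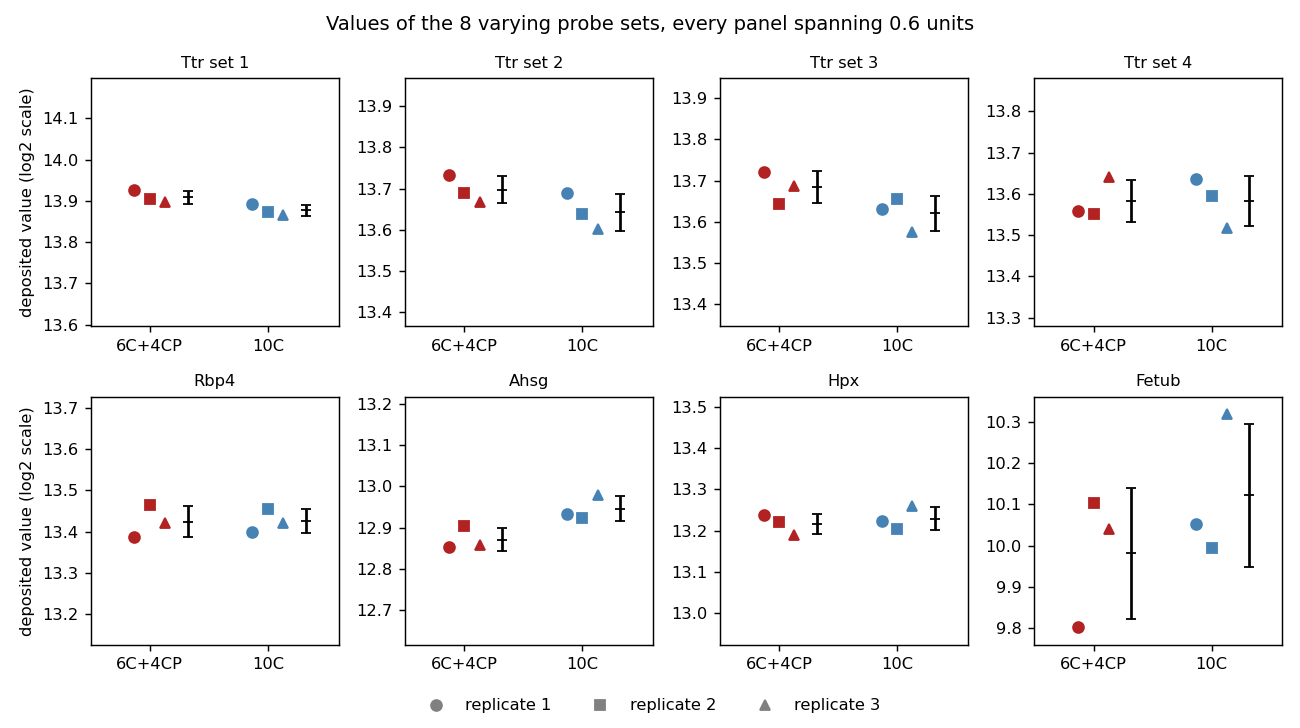
Deposited values (log2 scale) of the 8 varying carrier probe sets by mouse, 6C+4CP left of 10C, with the mean and SD of 3 mice beside each group. Every panel spans 0.6, and Ahsg (all lower in 6C+4CP) and Ttr set 1 (all higher) are the 2 panels in which the diets do not overlap.

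**Figure D3:**
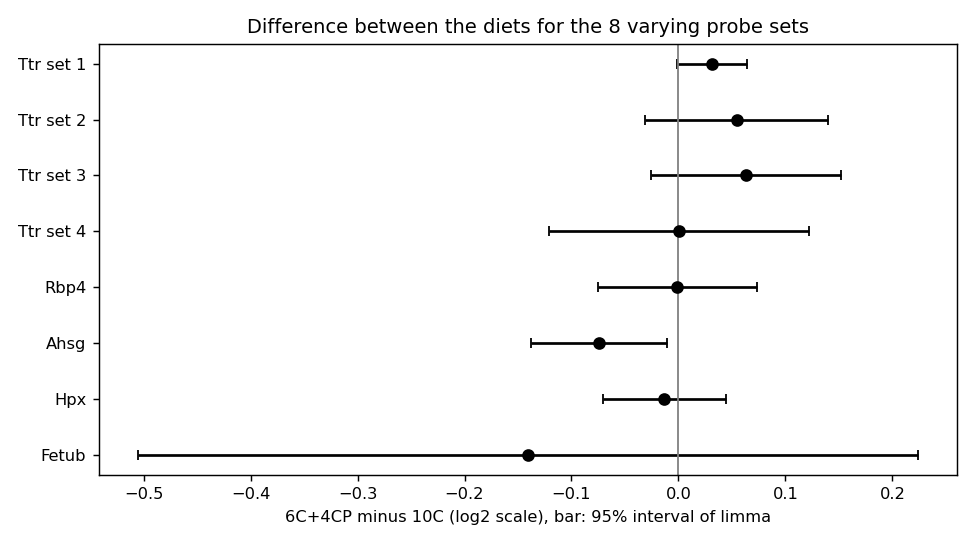
Difference between the diets, 6C+4CP minus 10C (log2 scale), with limma's 95% interval from the fit over all probe sets. The interval of Ahsg lies under 0, those of the 7 others include 0, and no probe set passed after adjustment.

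The size of the members' differences can be set beside that of other probe sets. The median size of the difference was 0.043 over the 8 members, 0.082 over all 7791 varying probe sets and 0.074 over the 160 varying ones with a mean of 12 or more. From means of 8 upward, ranges were narrower at brighter means. The median range across arrays of varying probe sets was 0.46 at means from 8 to 10, 0.39 from 10 to 12, 0.31 from 12 to 13 and 0.16 at 13 or more. Whether brightness narrows the members' differences was not tested. Scd1, a fatty acid desaturase, had the widest difference of the 46 varying probe sets with means of 13 or more, 0.75. It averaged 13.310, under Rbp4 and all 4 Ttr probe sets but over Hpx. Within that band 34, 25, 23 and 45 of the 46 had a wider difference than Ttr sets 1, 2, 3 and 4, 44 had one wider than Rbp4 and 40 one wider than Hpx. In their own bands 60 of 114 were wider than Ahsg and 392 of 861 wider than Fetub.

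The extreme values of the members gathered in 2 mice. The mouse 10C replicate 3 held the highest value of Ahsg, Fetub and Hpx and the lowest of all 4 Ttr probe sets, an extreme in 7 of the 8. That mouse was an extreme in 41.8% of all varying probe sets and in 53.1% of those with a mean of 12 or more, and the 4 Ttr probe sets read 1 transcript. Its array was closer to that of 6C+4CP replicate 2 (r = 0.985 across varying probe sets, which are not independent) than to the other 10C arrays (0.971 and 0.973). Without it the difference of Ahsg was -0.057, and those of Ttr were 0.026, 0.034, 0.040 and -0.032. The mouse 6C+4CP replicate 1 was an extreme in 6 of the 8, against 29.2% of all varying probe sets and 38.1% of those with a mean of 12 or more.

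An acute phase gene stood out in another mouse. Saa1, serum amyloid A, which rises strongly in inflammation, read 7.868, 7.536 and 9.135 in 6C+4CP, against 7.680, 14.026 and 8.844 in 10C. The mouse with the high value, 10C replicate 2, was neither the highest nor the lowest in any of the 8 member probe sets (0 of 8, against 38.8% of all varying probe sets and 29.4% of those with a mean of 12 or more). The same held for 10C replicate 1, whose Saa1 was low (0 of 8, against 28.9% and 34.4%). Without 10C replicate 2 the difference was -0.085 for Ahsg, -0.20 for Fetub, -0.026 for Hpx and 0.014 for Rbp4.

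Hepatocyte genes, the check of the labelled tissue, averaged 12.71 to 12.88 in 6C+4CP and 12.68 to 12.88 in 10C over the 8 that varied, out of 10 measured. The others, Cyp2e1 and Ass1, held a value shared by all mice, 13.572 and a low 6.716. Of the 8 that varied, 3 had a higher and 5 a lower mean in 6C+4CP. Without overlap 4 were lower and 1 higher, against 19.9% of all varying probe sets, with 0 called by either fit. Among the lower, Cps1, an enzyme of the urea cycle, had a difference of -0.27 (SE 0.041). Hpd, of tyrosine breakdown, had one of -0.23 (SE 0.092) and Apoa1, an apolipoprotein, one of -0.11 (SE 0.024). The 3 higher were Tat with 0.47 (SE 0.50), Hnf4a with 0.40 (SE 0.13, without overlap) and Pck1 with 0.28 (SE 0.21). All these were chosen after their values were seen. Of 8 varying Kupffer cell and macrophage markers 7 had a lower and 1 a higher mean in 6C+4CP, all with overlap, at averages of 7.95 to 8.51 in 6C+4CP and 8.17 to 8.63 in 10C. Of 5 B cell markers measured 2 varied, 1 higher and 1 lower in 6C+4CP. Cd22, the higher one, had a difference of 0.050 (SE 0.055) with overlap. Ighm, the heavy chain of IgM, read 8.325, 8.397 and 8.259 in 6C+4CP, against 8.656, 9.076 and 9.225 in 10C, without overlap and with a difference of -0.66 (SE 0.17; limma, adjusted p = 0.610). Of 5 T or NK cell and 5 neutrophil markers 0 varied. The part of these markers in the members' values was not tested. In bulk liver, fewer cells of a type and less RNA per cell cannot be told apart.

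Other secreted plasma proteins had both small and wide differences, from -0.64 for Igfbp1 to 0.71 for Serpina6, the corticosteroid carrier, both with overlap. Of 21 further binding and transport proteins 17 varied, 7 higher and 10 lower in 6C+4CP, with a median of -0.017 and 0 called by either fit. Apoh, a phospholipid-binding apolipoprotein, averaged 13.447 ± 0.015 in 6C+4CP and 13.517 ± 0.0097 in 10C (SD, n = 3 each), a difference of -0.070 (SE 0.0099, or 0.030 in the fit to varying probe sets) without overlap (limma, adjusted p = 0.328). Cp, the copper carrier ceruloplasmin, had a difference of 0.032 (SE 0.010, or 0.031 in that fit) without overlap. Orm2, an acid glycoprotein, had one of 0.63 (SE 0.26) with overlap. Over the list 3 genes did not overlap, 1 higher and 2 lower, against 19.9% of all varying probe sets.

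Inhibitor chains and plasma protease inhibitors lay lower in 9 of 10 varying genes and higher in 1, out of 14 measured, with a median of -0.093 and 0 called by either fit. Of all varying probe sets 52.1% lay lower. Among the 10, 3 were lower without overlap and 0 higher, against 9.11% lower and 10.8% higher of all varying probe sets. Serpinf2, the plasmin inhibitor alpha-2-antiplasmin, read 10.335, 10.419 and 10.251 in 6C+4CP, against 10.545, 10.536 and 10.560 in 10C, a difference of -0.21 (SE 0.048; limma, adjusted p = 0.572). Serpind1, heparin cofactor II, differed by -0.17 (SE 0.061) and Serpina1c, an alpha-1-antitrypsin of a multigene family whose probes can bind its near-identical copies, by -0.034 (SE 0.0076, or 0.030 in the fit to varying probe sets). Of the heavy chain relatives of Itih1, Itih2 had a difference of 0.050, Itih3 one of -0.13 and Itih4 a value shared by all mice.

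Receptors and recycling partners of the carriers gave 5 higher and 3 lower of 8 varying genes, out of 16 measured, all with overlap and 0 called by either fit. Fcgrt, the neonatal Fc receptor that returns albumin to the blood, had a difference of 0.21 (SE 0.14), its light chain B2m one of -0.051 (SE 0.037), and Stra6l, a retinol-binding protein receptor, one of -0.65 (SE 0.38). The median over the list was 0.0012.

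Liver transcription factors known to drive secreted protein genes had 8 higher and 3 lower of 11 varying members, out of 12 measured, with a median of 0.13 and 0 called by either fit. Hnf4a, a nuclear receptor that binds many hepatocyte promoters, read 11.494, 11.412 and 11.452 in 6C+4CP, against 11.218, 10.797 and 11.130 in 10C. All 3 mice of 6C+4CP lay above all 3 of 10C, a difference of 0.40 (SE 0.13; limma, adjusted p = 0.704). The same probe set stood for Hnf4a among the hepatocyte genes above. Tef, a clock-controlled factor of the PAR family, also did not overlap, with 0.27 (SE 0.066). Onecut1, a hepatocyte homeobox factor, had -0.90 (SE 0.66) with overlap. Over the list 2 were higher and 0 lower without overlap, against 10.8% and 9.11% of all varying probe sets.

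Inducible acute phase genes gave 3 higher and 11 lower of 14 varying members, out of 16 measured, with a median of -0.11 and 0 called by either fit. Socs3, an inhibitor of cytokine signalling, had a difference of 0.99 (SE 0.20) without overlap (limma, adjusted p = 0.506). Without 10C replicate 2 the list ran from -0.55 to 0.84 with a median of -0.050, and Saa1 (-2.00 with all arrays) had -0.082 and Hamp, the iron hormone hepcidin (1.33), had 0.35. Saa4 and Fgb, the fibrinogen beta chain, overlapped with -0.39 (SE 0.22) and -0.12 (SE 0.080).

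Genes of the response to amino acid shortage varied in 6 of 16 measured, 4 higher and 2 lower, with a median of 0.067 and 0 called by either fit. Of these 6, 5 did not overlap between the diets, 4 higher and 1 lower, against 19.9% of all varying probe sets. Fgf21, a liver hormone induced by protein restriction, read 7.257, 7.683 and 8.068 in 6C+4CP, against 7.106, 6.377 and 7.018 in 10C, a difference of 0.84 (SE 0.32; limma, adjusted p = 0.704). Cth, an enzyme of cysteine synthesis, had -0.27 (SE 0.098) and Ddit3, the stress factor CHOP, 0.074 (SE 0.027), both without overlap.

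**Figure D4:**
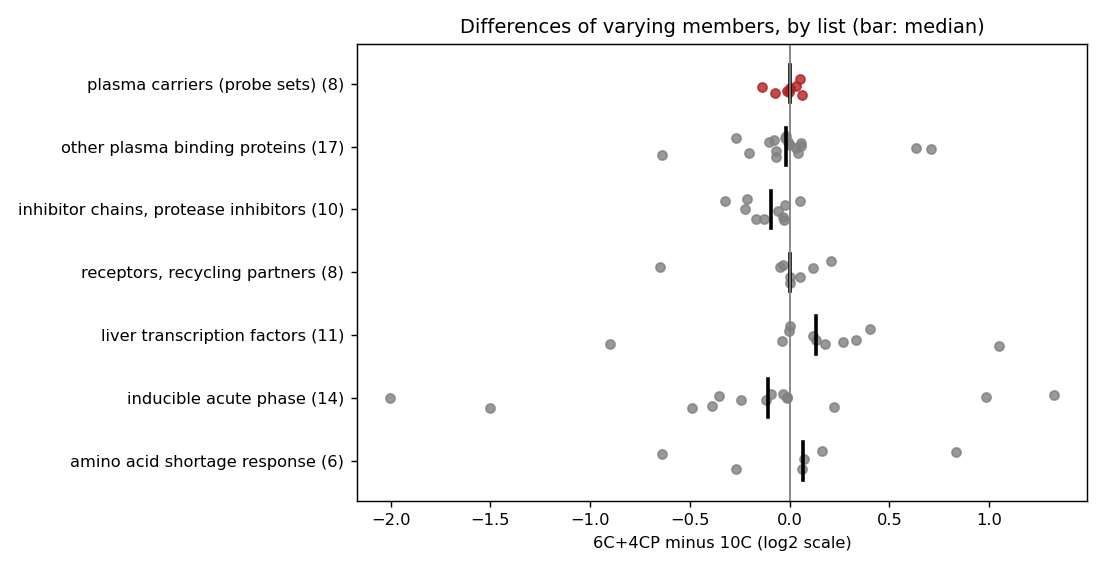
Difference between the diets, 6C+4CP minus 10C (log2 scale), of each varying gene in the 6 further lists and of the 8 varying carrier probe sets (red), with the number per list in brackets and the median as a bar. The carriers lie between -0.14 and 0.063, while acute phase genes reach from -2.00 (Saa1) to 1.33 (Hamp), 2 ends that become -0.082 and 0.35 without 10C replicate 2.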

How the data were processed

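The authors deposited 1 processed column per array, read here as log2 values. The submitters' processing notes name R 2.7.2. Background correction, probe summarisation and log base: not given in the sources used here. Values ran from 4.757 to 14.476 and were used as deposited, with no signal over background beside them.

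After 64 Affymetrix controls were left out, 45037 probe sets were tested, of which 34945 had 1 gene symbol, 932 several and 9160 none. The comparison of the diets used lmFit and eBayes of limma 3.58.1 under R 4.3.3 (all 6 arrays, no covariates, two-sided), with Benjamini-Hochberg adjustment over all probe sets and a threshold of 0.05. Differences are 6C+4CP minus 10C. Because most probe sets hold a value shared by all arrays, which brings the estimated prior spread to nearly 0, the fit was repeated on the 7791 that range over more than 0.01. The script was tested on simulated data. Each array is a separate mouse, and their number limits the precision.

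Members and lists were chosen with earlier results of these data known. All members were named, and from each further list the 3 varying genes with the smallest p, each through its varying probe set with the highest mean. Saa1 was fixed by name. Scd1, Serpina6, Igfbp1, Hamp, Dbp, Ighm, Cd22, Itih2, Itih3, Itih4, Atf4, Slc7a11 and the named hepatocyte genes were chosen after their values were seen. Alternatives were a block on the replicate number, leaving 1 array out, other normalizations, other sets of probe sets, an intensity trend and a threshold of 0.1.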

Additional observations from a re-analysis of the deposited data

How the results depend on the processing

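No member probe set passed the threshold in the alternatives run, of which 2 could hardly have called one. The fit with trend and robust estimation gave 7 of the 8 varying members standard errors from 49.3 to 1048, and median centring gave all 8 the same one, 0.090. Of 96 alternative values of the 8 varying probe sets over 12 settings, 10 reversed in sign, all of them of Hpx, Rbp4 or Ttr set 4. Some of the 96 could not reverse. The replicate block, the fits to varying or brighter probe sets and trend and robust estimation leave the difference itself unchanged. With quantile normalization the reversed values were 0.037 for Hpx, 0.046 for Rbp4 and -0.0066 for Ttr set 4, and with median centring the last was -0.0051. Without any 1 array, Hpx ran from -0.026 to 0.0016, Rbp4 from -0.021 to 0.017 and Ttr set 4 from -0.032 to 0.027. Ahsg, Fetub and the other 3 Ttr probe sets did not change sign in those settings, but with quantile normalization Ahsg was -0.035 and Ttr sets 2 and 3 were 0.019 and 0.041.

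The median over the varying members, -0.00037, was 0.027 with quantile normalization and -0.013 with the highest-mean probe set of each gene, and ran from -0.00085 to 0.015 without any 1 array. The 109 calls over all probe sets became 3 with the replicate number as a block, 1 with quantile normalization, 1324 with median centring, 0 on varying probe sets, 0 on the brighter part and 0 with trend and robust estimation, and ran from 285 to 398 without any 1 array. The cause was not tested. The replicate block left 0 members called, with adjusted p = 0.141 for Ttr set 1. Same-numbered mice correlated in their deviations by 0.48, -0.089 and 0.085 for numbers 1, 2 and 3, and 6C+4CP replicate 2 correlated best with 10C replicate 3 (0.40), so the numbers were not taken as pairs.

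The count of members higher without overlap, 1 with all arrays, was 1 or 2 without any 1 array, and 2 without 10C replicate 1, 10C replicate 2, 6C+4CP replicate 2 or 6C+4CP replicate 3 (counts added after seeing the data). The number lower without overlap was 1 throughout. With 1 array fewer the share of all varying probe sets without overlap was also larger, between 14% and 17.3% higher and between 12.5% and 21% lower, against 10.8% and 9.11% with all arrays.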

Other observations

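Igfbp1, a binding protein of insulin-like growth factors that rises in fasting, read 8.531, 11.707 and 9.004 in 6C+4CP, against 9.015, 10.237 and 11.915 in 10C. It was chosen after its values were seen. Its highest values belonged to 10C replicate 3 and 6C+4CP replicate 2, the mouse pair whose arrays were closer to each other than 10C replicate 3 was to its own diet. Dbp, a clock-controlled factor of the PAR family that binds the albumin promoter, read 11.196, 9.575 and 10.762 in 6C+4CP, against 10.458, 10.231 and 7.687 in 10C, and was also chosen after its values were seen. Its lowest value in each diet belonged to that same pair, and the diets overlapped in both genes. Hamp, the iron hormone hepcidin, read 11.247, 11.392 and 11.842 in 6C+4CP, against 11.367, 8.221 and 10.912 in 10C, and its lowest value was that of 10C replicate 2, the mouse with high Saa1.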
